A study of Mus musculus with 12 samples.

Results

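Transcription factor genes of the endocardial cushions were followed in embryonic mouse hearts, with and without *Hira* in the Mesp1 lineage. They are *Sox9*, *Twist1*, *Msx1*, *Msx2*, *Snai1*, *Snai2*, *Prrx1*, *Prrx2*, *Scx* and *Nfatc1*, and they were chosen by symbol, as 10 of the 17827 autosomal genes whose read counts could be recovered. HIRA is a histone chaperone that places the variant histone H3.3 on chromatin outside replication. Hearts of strain CD1 were collected at embryonic day (E) 11.5 and 12.5. *Mesp1Cre;Hira+/fl* hearts, labelled Cre control, keep 1 unrecombined *Hira* allele, and *Mesp1Cre;Hira-/fl* hearts, labelled Mutant, pair a null allele with the floxed allele. Both genotypes carry *Mesp1Cre* and a floxed allele, so Cre itself is shared, and the controls are heterozygous in the Mesp1 lineage. There were 3 RNA-seq libraries in each of the 4 groups, and the labels do not say how many hearts went into a library or whether a litter was shared. The p-values below therefore measure the spread between these libraries. *Mesp1Cre* recombines in the early cardiac mesoderm, which forms endocardium, cushion mesenchyme derived from it, myocardium and epicardium, while cardiac neural crest cells, which also enter the outflow cushions, are not its main target.

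The cushions are swellings of matrix between myocardium and endocardium from which valves and the membranous septa are made. Under BMP, TGF-beta and Notch signals some endocardial cells lose their junctions and migrate into the matrix, a transition of endothelium to mesenchyme. SNAI1 and SNAI2 are zinc finger repressors of junction genes in this transition, and MSX1 and MSX2 are homeodomain factors that respond to BMP. TWIST1 and SOX9 keep cushion cells as dividing, migrating mesenchyme, PRRX1 and PRRX2 are homeodomain factors of mesenchyme in many organs, and SCX is a bHLH factor of tendon and of the tendon-like part of the valves. NFATC1 differs from the others in place, since in the heart it marks the endocardium, above all the cells of the valve region that remain endothelial. Because the RNA came from whole hearts, fewer cells of a type and less RNA per cell cannot be told apart.

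Sequences of the promoters are shown for members whose levels moved together over the 12 libraries, as described further on, and whose bases before the start lie outside the annotated gene. They are the 250 bases before the RefSeq start (GRCm38.p6) of *Twist1* (chr12:33957421-33957670, plus strand), *Msx1* (chr5:37824586-37824835, minus strand) and *Snai1* (chr2:167537945-167538194, plus strand), 5′ to 3′ in the direction of transcription. Capitals mark the E-box CANNTG, the motif bound by bHLH factors such as TWIST1 and SCX.
Twist1: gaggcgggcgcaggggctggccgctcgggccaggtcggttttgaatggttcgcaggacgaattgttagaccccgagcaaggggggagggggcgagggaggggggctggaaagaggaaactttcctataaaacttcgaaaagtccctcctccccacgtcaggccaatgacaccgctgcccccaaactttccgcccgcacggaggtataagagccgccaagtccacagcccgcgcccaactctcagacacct
Msx1: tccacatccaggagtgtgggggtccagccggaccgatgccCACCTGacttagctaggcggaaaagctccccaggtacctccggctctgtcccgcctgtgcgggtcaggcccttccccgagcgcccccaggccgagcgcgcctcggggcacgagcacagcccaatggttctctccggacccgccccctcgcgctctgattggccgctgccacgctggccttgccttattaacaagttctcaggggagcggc
Snai1: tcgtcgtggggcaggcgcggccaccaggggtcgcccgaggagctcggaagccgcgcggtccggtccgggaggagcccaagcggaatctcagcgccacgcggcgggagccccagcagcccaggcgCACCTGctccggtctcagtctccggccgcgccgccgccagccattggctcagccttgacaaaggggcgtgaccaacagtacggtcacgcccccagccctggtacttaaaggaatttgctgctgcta
Promoter sequences were at hand for 6 members, *Twist1*, *Msx1*, *Msx2*, *Snai1*, *Prrx1* and *Prrx2*. CANNTG was found in 3 of these 6 (*Msx1*, *Msx2* and *Snai1*) and in 66.2% of the 32851 promoter windows of the same length. The form CAGGTG, read as CACCTG on the other strand and a subset of CANNTG, is the one SNAI1 and SNAI2 bind. It was found in *Msx1* and *Snai1* and in 17.2% of all windows. A match is a description of the letters and was not tested as a binding site.

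The 12 libraries held 11994148 to 17483982 counts. The targeted gene, *Hira*, had 57.0 to 73.7 CPM (counts scaled to library size, with TMM factors) in the E11.5 mutants and 68.6 to 86.2 in their controls. At E12.5 it had 70.4 to 79.7 in the mutants and 60.7 to 86.5 in the controls. Recombination removes an exon and leaves the rest of the gene to be counted, so this total does not check the genotype. All 3 E11.5 controls but 1 of the 3 E11.5 mutants were male by their Y-linked counts, and each E12.5 group held 1 male. Cardiomyocyte markers summed to 21346 to 28631 CPM over all libraries, as a heart should show. Libraries that stood apart, 3 in number, did so in 12 markers of pharyngeal and body wall mesenchyme, which neighbour the heart, with 36.9 CPM in E11.5 control 1, 12.4 in E11.5 mutant 1 and 11.1 in E12.5 mutant 3. The other 9 libraries held 2.99 to 5.30 CPM. The same 3 libraries were highest in 8 foregut epithelium markers, at 21.04, 14.04 and 16.4 CPM, against at most 3.86 in the others. Of these markers *Cdh1* and *Epcam* led in E11.5 control 1 (171 and 138 counts) and E12.5 mutant 3 (147 and 78). *Nkx2-1* had 2 and 13 counts there. E11.5 mutant 1 had 56 counts of *Cdh1*, 94 of *Epcam* and 50 of *Nkx2-1*. In E11.5 control 1 the mesenchyme signal was led by *Alx4* (271 counts), a homeobox gene of craniofacial mesenchyme, while *Pax3* and *Pax9* were at 0. Liver markers, 8 in number, were highest in E12.5 mutant 1 (93.8 CPM) and E11.5 mutant 1 (87.6 CPM), against 22.5 to 58.9 in the others. Erythroid markers differed between the genotypes at E12.5, with sums of 3812 to 6153 CPM in controls against 2066 to 2604 in mutants. By edgeR 5 of the 6 tested were called lower there, where 3.03% of all genes were called. At E11.5 the sums were 4306 to 5363 CPM in controls and 4382 to 5551 in mutants. The part of red cells in the members' values was not tested. The *Msx2*, *Prrx1* and *Nfatc1* differences are given also without the libraries that moved them most, and those of the other members without each library are given as ranges in the closing section.

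All 10 genes were expressed above the minimum used for testing, a mean of 0.5 reads per kilobase scaled to library size (RPKM), in every comparison. *Prrx2* had the highest level per length, 37.0 RPKM over the 12 libraries (range 27.8 to 47.2). *Twist1* followed at 17.9 RPKM (11.3 to 27.6). *Nfatc1* at 8.70, *Sox9* at 8.26, *Snai2* at 6.91, *Snai1* at 5.20, *Scx* at 4.98, *Msx1* at 3.91, *Msx2* at 2.50 and *Prrx1* at 2.33 RPKM made up the rest of the order. *Prrx2* lay above *Twist1* without overlap in 4 of 4 groups, and *Twist1* above *Nfatc1* in 3 of 4. Of the other neighbours in the order, *Sox9* and *Snai2*, *Snai1* and *Scx*, and *Msx2* and *Prrx1* overlapped in every group, and the remaining pairs were separate in 1 or 2 groups. In the coordinates of the deposited file (GRCm38) the genes lie apart from each other, with *Sox9* at chr11:112782224-112787760, *Twist1* at chr12:33957671-33959817, *Msx1* at chr5:37820485-37824583, *Msx2* at chr13:53467877-53473074 and *Snai1* at chr2:167538195-167542814. *Prrx1* lies at chr1:163245116-163313710, *Prrx2* at chr2:30834972-30881241, *Scx* at chr15:76457438-76459468 and *Nfatc1* on chromosome 18. The levels per length used the gene lengths implied by the deposited values, which for *Prrx1*, *Prrx2*, *Scx*, *Msx1* and *Msx2* were shorter than all exonic bases of the annotation.

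Related genes were used unequally. *Prrx1* stood at 0.0603 ± 0.0272 (SD, n = 3) of the *Prrx2* level per length in E11.5 controls and at 0.0723 ± 0.0122 in E12.5 controls. *Snai1* stood at 0.736 ± 0.153 of *Snai2* in E11.5 controls and 0.739 ± 0.0675 in E12.5 controls, so *Snai2* was the more abundant in all 6. *Msx1* and *Msx2* were closer, with ratios of 0.904, 1.71 and 0.781 in the E11.5 controls. In the E11.5 mutants the *Msx1* to *Msx2* ratio was 2.62, 1.82 and 2.63, above every control, with an exact two-sided permutation p of 0.1, which is the smallest that 3 against 3 can give. At E12.5 the ratio was 2.20, 1.39 and 1.48 in controls and 2.97, 2.94 and 0.893 in mutants, and the groups overlapped (exact permutation p = 0.8). The ratio of 0.893 belonged to E12.5 mutant 3 and that of 0.904 to E11.5 control 1, both among the libraries with mesenchyme markers. E11.5 mutant 1, also among them, had 2.62. The lowest ratio, 0.781, belonged to E11.5 control 3, which is not among them.

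**Figure D1:**
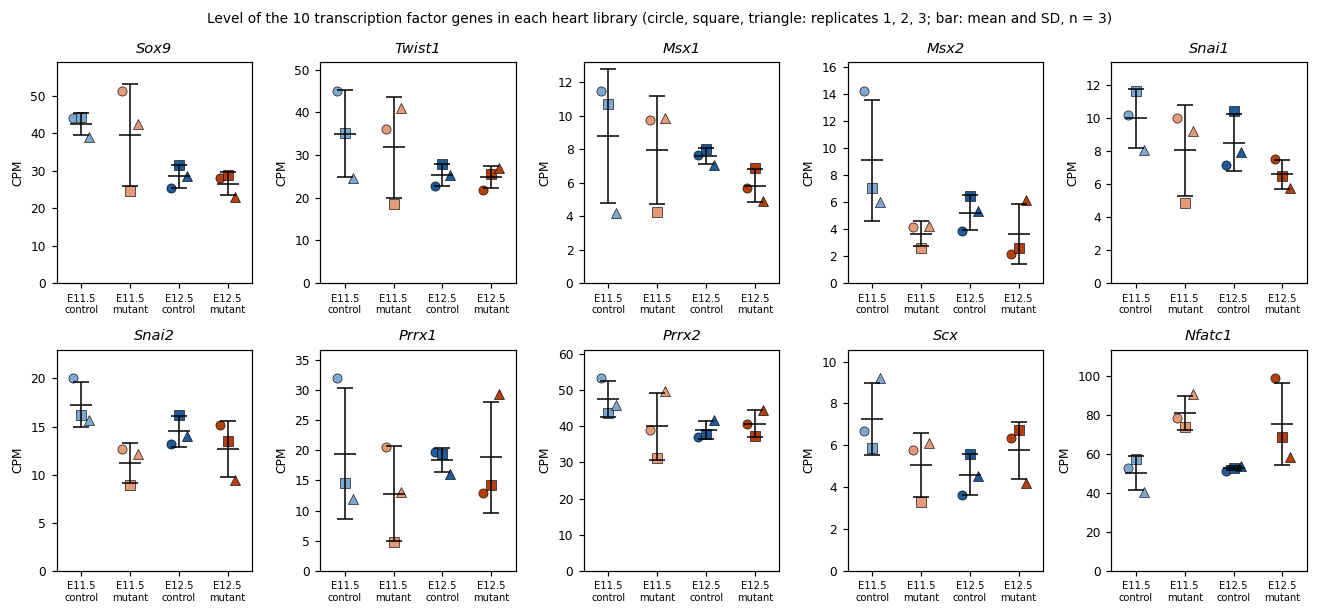
Level of each gene in CPM (vertical axes starting at 0) in the 12 heart libraries, by stage and genotype; points are libraries and bars show the mean and SD of 3. Nfatc1 is the gene whose mutants lie above the controls at both stages, and Msx2 and Snai2 lie lower in E11.5 mutants.

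The comparison of mutants with controls asked whether the loss of *Hira* in the cardiac mesoderm changed the cushion genes. *Nfatc1* was the member that rose. At E11.5 it had 52.6, 57.2 and 40.5 CPM in the controls and 78.5, 73.5 and 90.6 CPM in the mutants, and all mutants were higher. At E12.5 it had 51.4, 52.8 and 53.8 CPM in the controls and 98.6, 68.5 and 58.3 CPM in the mutants, again with no overlap. The highest of these, 98.6, belonged to E12.5 mutant 1, the library with the highest sum of liver markers. The controls of E12.5 were nearly level, and the mutants spread widely above them. A gene counted as called when edgeR's quasi-likelihood test gave an adjusted p of 0.05 or lower (Benjamini-Hochberg, over every gene tested) and the groups differed 1.5-fold or more. With both stages in a fit adjusted for stage, *Nfatc1* was 1.52-fold higher in mutants (log2 0.60, SE 0.12, edgeR adjusted p = 0.00953). It was the only 1 of the 10 members called, where 3.19% of all 12270 genes were called. Within a stage the increase missed the threshold, with log2 0.69 (SE 0.16, edgeR adjusted p = 0.154) at E11.5 and 0.53 (SE 0.15, edgeR adjusted p = 0.0769) at E12.5. The difference between these effects was -0.18 on the log2 scale (SE 0.25, edgeR adjusted p = 0.954). The increase lay close to the 1.5-fold limit. Without E11.5 control 3, E11.5 mutant 3 or E12.5 mutant 1 the log2 values were 0.53, 0.56 and 0.51, under the fold limit, with edgeR adjusted p of 0.0200, 0.0175 and 0.0227. Without E12.5 mutant 3, the lowest mutant, the E12.5 difference was 0.67 (edgeR adjusted p = 0.0243) and was called. Without E12.5 mutant 1, the highest mutant, it was 0.27 (SE 0.098, edgeR adjusted p = 0.187). With the 3 libraries rich in mesenchyme markers left out, the difference adjusted for stage was 0.70 (SE 0.13, edgeR adjusted p = 0.0205).

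Since NFATC1 marks the endocardium, endothelial markers were set beside it. The sum of 12 endocardial and endothelial markers was 1182, 1476 and 1182 CPM in the E11.5 controls and 1421, 2093 and 1396 in the mutants. At E12.5 it was 1582, 1548 and 1578 CPM in controls and 1857, 1470 and 1779 in mutants. The groups overlapped at both stages (exact permutation p = 0.3 and 0.4), and no marker of the list was at 0 in any library. As a share of this sum, *Nfatc1* was 3.92% ± 0.515 (SD, n = 3) in E11.5 controls and 5.18% ± 1.52 in E11.5 mutants. At E12.5 the share was 3.36% ± 0.0940 in controls and 4.42% ± 1.04 in mutants. One mutant of each stage, E11.5 mutant 2 at 3.51% and E12.5 mutant 3 at 3.28%, fell within the range of the controls (exact permutation p = 0.3 at each stage). The median change over the 12 markers was 0.25 on the log2 scale in the fit adjusted for stage, beside -0.01 over all genes, and 0 of the 12 were called there. By an unadjusted p under 0.05, 6 of the 12 differed, where 19.4% of all genes did. At E11.5 their median change was 0.39, with 5 of the 12 at an unadjusted p under 0.05, against 10.3% of all genes. At E12.5 the median was 0.098, with 4 of the 12 under 0.05, against 21.3% of all genes. *Cldn5*, a marker of the list, was called lower in the E12.5 mutants (-1.06, SE 0.25, edgeR adjusted p = 0.0339). The part of the endothelium in the *Nfatc1* result was not tested further.

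**Figure D2:**
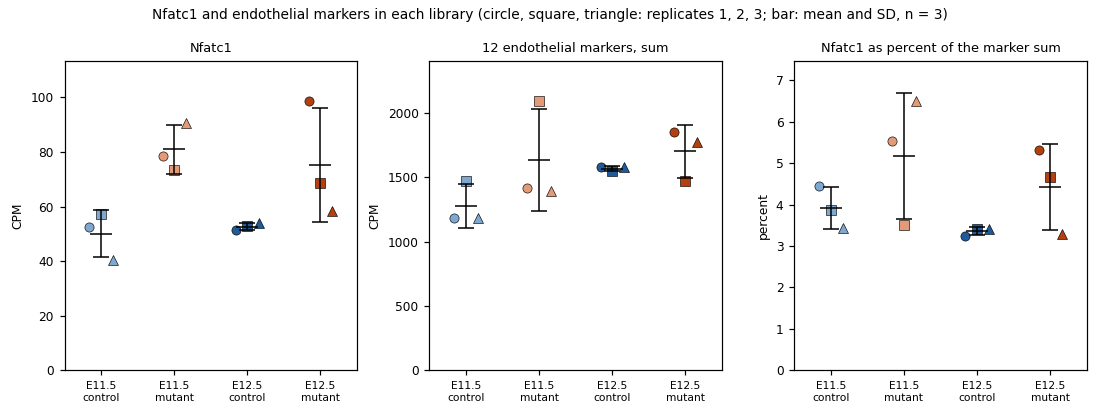
Nfatc1 (left, CPM), the sum of 12 endocardial and endothelial markers (middle, CPM) and Nfatc1 as a percent of that sum (right) in each library, with the mean and SD of 3. Nfatc1 is higher in all mutants, while the share overlaps with the controls in E11.5 mutant 2 (3.51%) and E12.5 mutant 3 (3.28%).

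*Msx2* had the largest difference among the members, and it missed the threshold. At E11.5 its level was 14.2, 7.04 and 6.03 CPM in the controls and 4.17, 2.61 and 4.22 CPM in the mutants, without overlap. The controls were themselves more than 2-fold apart, with the highest value in E11.5 control 1. The difference was -1.32 on the log2 scale (SE 0.37, edgeR adjusted p = 0.220). Without E11.5 control 1 it was -0.84 (edgeR adjusted p = 0.535), a smaller difference without the library richest in mesenchyme markers. At E12.5 the level was 3.89, 6.43 and 5.35 CPM in the controls and 2.14, 2.63 and 6.15 CPM in the mutants, and the highest mutant, number 3, lay among the controls. The difference there was -0.52 (SE 0.36, edgeR adjusted p = 0.447). Without E12.5 mutant 3 it was -1.12 (edgeR adjusted p = 0.0567). Adjusted for stage, *Msx2* differed by -0.93 (SE 0.30, edgeR adjusted p = 0.0862). With the 9 libraries under 10 CPM of mesenchyme markers, a choice made after the marker sums were seen, it was called, at -1.05 (SE 0.21, edgeR adjusted p = 0.0283). Among the libraries left out were the control and the mutant with the highest *Msx2* of their groups.

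*Msx1*, its relative, had 11.5, 10.7 and 4.21 CPM in the E11.5 controls and 9.75, 4.25 and 9.90 in the E11.5 mutants, with each group holding 1 low library. At E12.5 it had 7.65, 8.01 and 7.07 CPM in the controls against 5.69, 6.89 and 4.91 in the mutants, which did not overlap. The E12.5 difference was -0.36 (SE 0.18, edgeR adjusted p = 0.274).

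The SNAI pair behaved alike in sign. *Snai2* had 19.9965, 16.2 and 15.7 CPM in the E11.5 controls and 12.7, 8.87 and 12.1 CPM in the mutants, with no overlap. Its difference was -0.62 (SE 0.19, edgeR adjusted p = 0.283). At E12.5 it was 13.2, 16.2 and 14.01 CPM in controls and 15.1, 13.5 and 9.42 in mutants, with overlap, and the difference was -0.18 (SE 0.17, edgeR adjusted p = 0.588). Adjusted for stage, *Snai2* differed by -0.41 (SE 0.14, edgeR adjusted p = 0.114). *Snai2* lies on chromosome 16 (chr16:14705852-14709395, GRCm38), 4.17 Mb from *Hira*, on the chromosome that carries the engineered alleles. *Snai1* had 10.2, 11.6 and 8.07 CPM in the E11.5 controls and 10.004, 4.86 and 9.21 in the mutants, and the difference was -0.32 (SE 0.29, edgeR adjusted p = 0.822). At E12.5 *Snai1* was 7.12, 10.4 and 7.93 CPM in controls and 7.49, 6.48 and 5.76 in mutants, a difference of -0.36 (SE 0.19, edgeR adjusted p = 0.306).

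*Sox9* and *Twist1*, regulators of cushion mesenchyme, did not differ detectably by genotype. *Sox9* had 44.0, 44.3 and 39.1 CPM in the E11.5 controls and 51.3, 24.6 and 42.5 CPM in the E11.5 mutants, so that the mutants held both the highest and the lowest value. At E12.5 it had 25.5, 31.6 and 28.5 CPM in controls and 28.1, 28.7 and 22.9 in mutants. The *Sox9* difference adjusted for stage was -0.10 on the log2 scale, with an approximate 95% interval from -0.38 to 0.17. Intervals here take the SE as normal and are narrower than the edgeR test would give. *Twist1* had 45.0, 35.1 and 24.6 CPM in the E11.5 controls and 36.1, 18.5 and 40.9 in the mutants. At E12.5 *Twist1* lay between 22.8 and 27.8 CPM in controls and between 21.9 and 27.0 in mutants, and its difference adjusted for stage was -0.09 (interval -0.43 to 0.26). A 1.5-fold change of *Sox9* or *Twist1* over both stages, 0.58 on the log2 scale, lies outside these intervals. At E11.5 alone the intervals were wider, -0.57 to 0.36 for *Sox9* and -0.73 to 0.45 for *Twist1*. A 1.5-fold fall at that stage lies inside the *Twist1* interval and close to the edge of the *Sox9* interval.

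*Prrx1* was the least steady member at E11.5, by its coefficient of variation in both genotypes. *Prrx1* had 32.0, 14.6 and 11.9 CPM in the E11.5 controls and 20.6, 4.74 and 13.1 in the mutants. The difference there was -0.61 (SE 0.51, edgeR adjusted p = 0.798), and it was -0.04 without control 1 and -1.15 without mutant 1. At E12.5 it had 19.8, 19.4 and 16.1 CPM in the controls against 12.9, 14.2 and 29.4 in the mutants. The 3 libraries with mesenchyme markers had the highest *Prrx1* of their groups. The E12.5 difference was 0.04 (SE 0.26, edgeR adjusted p = 0.943) and turned to -0.43 (SE 0.14, edgeR adjusted p = 0.113) without mutant 3. *Prrx2* was steadier, with 43.6 to 53.3 CPM (controls) against 31.4 to 49.8 (mutants) at E11.5, then 37.1 to 41.9 against 37.2 to 44.6 CPM at E12.5. Its difference adjusted for stage was -0.09 (interval -0.31 to 0.12).

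*Scx* had 6.67, 5.88 and 9.19 CPM in the E11.5 controls and 5.77, 3.28 and 6.11 in the mutants, and the difference was -0.52 (SE 0.30, edgeR adjusted p = 0.627). At E12.5 it had 3.63, 5.58 and 4.55 CPM in the controls against 6.36, 6.71 and 4.19 in the mutants, and the difference was 0.34 (SE 0.24, edgeR adjusted p = 0.455). *Scx* had the lowest p of the 10 members for a difference of the mutant effect between the stages, 0.85 on the log2 scale (SE 0.40, unadjusted p = 0.0515, edgeR adjusted p = 0.954). *Scx* lies inside *Bop1*, a ribosome biogenesis gene on the other strand, with 0 shared exonic bases, and the strand setting of the counting is not given in the sources used here. *Bop1* itself differed by 0.27 at E12.5 (SE 0.095, edgeR adjusted p = 0.131).

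Over the list, 0 of 10 members were called at E11.5, where 0.115% of all genes were, and 0 of 10 at E12.5, where 3.03% were. At E11.5, 9 of the 10 log2 differences were negative, with a median of -0.28 beside -0.01 over all 12197 genes. Epicardium markers were also lower, with sums of 557 to 855 CPM in controls against 341 to 529 in mutants. Their median difference was -0.74, 0 of 8 were called and 5 of 8 had an unadjusted p under 0.05, against 10.3% of all genes. At E12.5 the epicardium sums were 422 to 591 CPM in controls against 502 to 577 in mutants. Their median difference there was 0.14, and 1 of 8 was called, higher in mutants, where 3.03% of all genes were called. Their part in the members' values was not tested. Groups did not overlap for 3 members at E11.5 (*Nfatc1*, *Msx2* and *Snai2*), against 16.3% of all genes. At E12.5 they did not overlap for 2 members (*Nfatc1* and *Msx1*), against 26.4% of all genes, and the median difference was -0.05. No member had a mutant effect that differed between stages, and of all genes 0% did, by edgeR. By an unadjusted p under 0.05, 0 of the 10 members and 552 of the 12270 genes did. At E11.5 the sexes were unequal, and with sex as a covariate *Nfatc1* differed by 0.85 (edgeR adjusted p = 0.0848) and *Msx2* by -1.11 (edgeR adjusted p = 0.298).

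**Figure D3:**
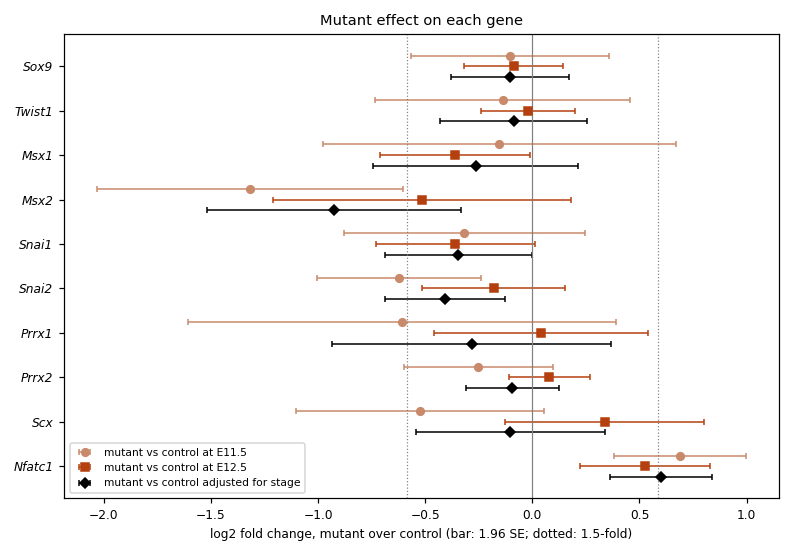
Log2 fold change of mutants over controls for each gene at E11.5, at E12.5 and adjusted for stage. Bars are approximate 95% intervals that take the SE as normal, and dotted lines mark a 1.5-fold change. The bars of Nfatc1 lie to the right of 0 in all 3 comparisons. Those of Msx2 and Snai2 lie to the left of 0 at E11.5 and adjusted for stage. So do those of Msx1 at E12.5 and Snai1 adjusted for stage, each with an unadjusted edgeR p of 0.068.

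The comparison of stages within a genotype asked how the members developed from E11.5 to E12.5. In controls 9 of the 10 log2 differences were negative, with a median of -0.27 beside 0.01 over all genes. In the same comparison the 8 epicardium markers had a median of -0.66, with 3 called lower and 1 higher, and the 12 endothelial markers a median of 0.37, with 2 called higher. The part of these cell types in the members' values was not tested. *Sox9* passed the p threshold, going from 39.1 to 44.3 CPM at E11.5 to 25.5 to 31.6 CPM at E12.5 without overlap. Its difference was -0.57 (SE 0.11, edgeR adjusted p = 0.0220), just under the 1.5-fold limit, so that 0 of 10 members were called where 5.31% of all genes were. *Scx* differed by -0.65 (SE 0.25, edgeR adjusted p = 0.0987), *Msx2* by -0.80 (SE 0.32, edgeR adjusted p = 0.120), *Twist1* by -0.46 (SE 0.19, edgeR adjusted p = 0.119) and *Prrx2* by -0.29 (SE 0.11, edgeR adjusted p = 0.100). Stages did not overlap for *Sox9*, *Prrx2* and *Scx*, against 37.4% of all genes. Leaving out 1 library made a call of *Scx* without E11.5 control 2 (-0.78, edgeR adjusted p = 0.0434) and a call of *Sox9* without E11.5 control 3 (-0.63, edgeR adjusted p = 0.0397). The *Msx2* difference was -0.32 without E11.5 control 1. *Nfatc1* was level between the stages in controls, at 50.1 ± 8.62 (SD, n = 3) and 52.7 ± 1.23 CPM.

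In mutants 5 of the 10 differences were negative, and 0 of 10 were called where 0.523% of all genes were. *Sox9* differed by -0.56 (SE 0.25, edgeR adjusted p = 0.547), a value near that of the controls with a larger error. Stages overlapped for all 10 members, against 17.4% of all genes that did not overlap. E11.5 mutant 2 had the lowest level of its group in all 10 members. In the E11.5 mutants the coefficient of variation was 34.5% for *Sox9* and 61.9% for *Prrx1*, and in the E11.5 controls it was 6.85% and 56.0%.

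The members varied together from library to library. Each gene was standardised over the 12 libraries, and the mean over the 10 genes was taken as a profile. It was highest in E11.5 control 1 (1.21 SD units, with 9 of 10 members above their own mean) and lowest in E11.5 mutant 2 (-1.44, with 1 of 10 above). The remaining libraries lay between -0.50 and 0.61. Of the 45 pairs of members 39 were positively correlated over the 12 libraries, with a median Pearson r of 0.53. With group means removed 42 of 45 were, with a median of 0.56. The closest pairs were *Twist1* with *Msx1* (r = 0.835) and *Sox9* with *Snai1* (r = 0.818). *Twist1* had the highest correlation with the mean of the others (r = 0.90, 12 libraries) and *Nfatc1* the lowest (r = -0.22). These correlations are descriptions, since the libraries share depth and tissue composition with every gene.

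E11.5 mutant 2, the lowest library of the profile, had the highest endothelial marker sum of all, 2093 CPM. Over the 12 libraries the profile correlated with that sum at r = -0.78 and with the mesenchyme marker sum at r = 0.63. For single members the correlation with the endothelial sum ran from -0.75 for *Scx* to 0.46 for *Nfatc1*. The part that the cell makeup of each heart had in these values was not tested.

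**Figure D4:**
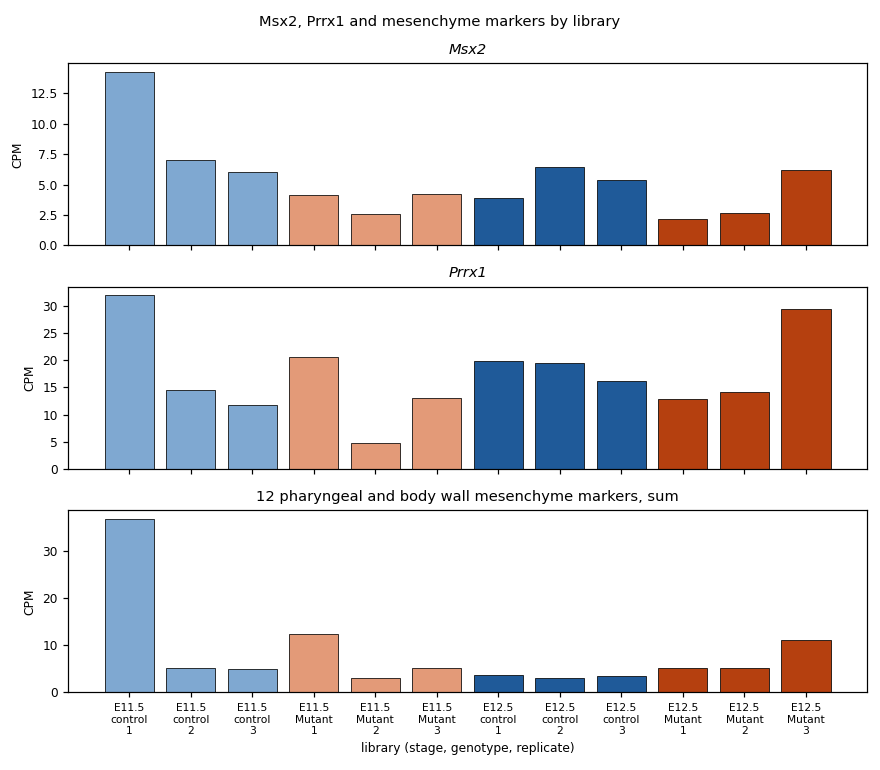
Msx2 and Prrx1 and the sum of 12 pharyngeal and body wall mesenchyme markers, in CPM, in each of the 12 libraries (bars from 0). E11.5 control 1 and E12.5 mutant 3 are the highest of their own groups in all 3 panels, at 36.9 and 11.1 CPM of the markers. The Msx2 level of E12.5 mutant 3 (6.15 CPM) lies among the E12.5 controls. E11.5 mutant 1, at 12.4 CPM of the markers, is the highest of its group in Prrx1 (20.6 CPM) but not in Msx2 (4.17 CPM).

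Among all genes tested, the 5 with the profile most like the mean of the members were *Bmp4* (r = 0.89), *Lmna* (r = 0.89), *Meis3* (r = 0.88), *Tead2* (r = 0.88) and *Kctd15* (r = 0.88), each over 12 libraries. *Bmp4* encodes a BMP ligand of the outflow tract, *Lmna* the nuclear lamins A and C, *Meis3* a homeodomain factor, and *Tead2* a DNA-binding partner of YAP. At E11.5 *Bmp4* was at 54.7 ± 3.38 CPM (SD, n = 3) in controls against 38.4 ± 17.1 in mutants. At E12.5 it was at 34.4 ± 4.14 CPM in controls against 38.7 ± 2.57 in mutants. In controls it fell by 0.67 on the log2 scale from E11.5 to E12.5 (SE 0.11, edgeR adjusted p = 0.0134).

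Of 24 genes for inducing signals and their receptors, all tested, *Bmp4* was the 1 called between control stages, and *Epha3* was the 1 called between genotypes. Shares called over all genes were 5.31% between control stages, 3.03% between genotypes at E12.5 and 3.19% adjusted for stage. *Epha3*, an ephrin receptor needed in the atrioventricular cushions, had 483, 566 and 411 counts in the E12.5 controls and 171, 255 and 175 in the mutants. It fell by 1.22 at E12.5 (SE 0.14, edgeR adjusted p = 0.00127) and by 1.24 adjusted for stage (SE 0.14, edgeR adjusted p = 1.9e-04). The median difference of the 24 genes adjusted for stage was -0.004, beside -0.01 over all genes.

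Of 34 other transcription factors of cushions and of the transition, 32 were tested in the fit adjusted for stage, 2 rose and 0 fell. Among all genes 3.19% were called in that fit, 3.03% at E12.5 and 5.31% between control stages. *Foxc2*, a forkhead factor of endocardium and outflow mesenchyme, rose by 0.90 (SE 0.12, edgeR adjusted p = 6.1e-04). *Snai3*, the third SNAI gene, rose by 0.94 (SE 0.20, edgeR adjusted p = 0.0114), from low levels of 1.48 to 3.65 CPM in controls to 2.94 to 9.90 CPM in mutants. At E12.5 *Foxc2* rose by 0.83 (SE 0.15, edgeR adjusted p = 0.0128) and *Gata5*, a zinc finger factor of endocardium, by 0.62 (SE 0.077, edgeR adjusted p = 0.00235). Between control stages *Id1*, a BMP-responsive inhibitor of bHLH factors, fell by 0.76 (SE 0.11, edgeR adjusted p = 0.00894) and *Tcf21*, of epicardium-derived cells, by 0.81 (SE 0.18, edgeR adjusted p = 0.0275). At E11.5 none of the 32 genes tested was called by edgeR, and 8 had an unadjusted p under 0.05, where 10.3% of all genes did.

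Matrix genes that cushion mesenchyme expresses were followed as well. Of 24 cushion and valve matrix genes 22 were tested, and adjusted for stage 6 fell and 0 rose, with a median of -0.26. Of all genes 3.19% were called in that fit, and their median was -0.01. *Fmod*, the collagen-binding proteoglycan fibromodulin, fell by 1.27 (SE 0.14, edgeR adjusted p = 1.6e-04). *Eln* (elastin) fell by 1.38 (SE 0.39, edgeR adjusted p = 0.0475), *Col1a2* by 0.83 (SE 0.20, edgeR adjusted p = 0.0245) and *Postn* (periostin) by 0.59 (SE 0.17, edgeR adjusted p = 0.0472). The proteoglycans *Lum* and *Dcn* fell by 0.80 (SE 0.20, edgeR adjusted p = 0.0279) and 0.75 (SE 0.15, edgeR adjusted p = 0.00911). At E12.5 *Hapln1*, which links hyaluronan to proteoglycan, rose by 0.79 (SE 0.097, edgeR adjusted p = 0.00222), and *Col2a1*, a cartilage collagen that SOX9 activates, fell by 0.84 (SE 0.17, edgeR adjusted p = 0.0179). *Fmod*, *Eln* and *Postn* were the other matrix genes that fell at E12.5, and *Fmod* the 1 that fell at E11.5. Of all genes 3.03% were called at E12.5 and 0.115% at E11.5.

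In controls from E11.5 to E12.5, *Has2*, *Hapln1*, *Tnc* and *Cthrc1* fell and *Col6a1* and *Eln* rose. Between stages 5.31% of all genes were called in controls and 0.523% in mutants. *Has2*, the hyaluronan synthase of cardiac jelly, fell by 1.01 (SE 0.12, edgeR adjusted p = 0.00507) and *Hapln1* by 1.16 (SE 0.12, edgeR adjusted p = 0.00202). *Tnc*, which fell by 1.88 (SE 0.45, edgeR adjusted p = 0.0318), had 5217 counts in E11.5 control 1 and 1369 and 1469 in the other E11.5 controls. In mutants *Hapln1* fell by 0.71 (SE 0.11, edgeR adjusted p = 0.0333) and *Lum* rose by 0.87 (SE 0.13, edgeR adjusted p = 0.0263). The lists were compared by counts and medians only, and no difference between them was tested.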

How the data were processed

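RNA-seq libraries of embryonic mouse hearts (total RNA, paired-end reads) were aligned by the authors with Bowtie2 version 2 to mm10 and normalised with DESeq, per the labels and methods. The counting program, annotation and strand setting are not given in the sources used here. The authors deposited values named RPKM for 20368 genes, treated here as a score because each is a count multiplied by gene length and a library factor, and expected counts averaged per group for 19424 genes. Whole counts were recovered for 17827 autosomal genes, with 100% whole within a tolerance of 0.001. The authors' fold changes, z scores and p-values were not used. Library totals of 11994148 to 17483982 set the counting precision.

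Genes with a mean of at least 0.5 RPKM were tested with edgeR 4.0.16 (R 4.3.3, TMM, quasi-likelihood, Benjamini-Hochberg over all genes), per stage, per genotype, adjusted for stage and for the interaction. Called genes passed 0.05 for the adjusted p and 1.5 for the fold (interaction: p alone). Single ratios were compared by two-sided exact permutation tests on log2 values. Alternatives were DESeq2 1.42.0, limma 3.58.1 on log2(RPKM + 0.5), median-ratio scaling, other filters, sex as a covariate, a replicate block, all libraries in 1 fit and each library left out. The script was tested on simulated data. The members and lists were chosen with earlier results of these data known. Named beside the 10 members were every called gene (up to 8 a list) of the lists of inducing signals, other cushion factors and matrix genes, and the 5 genes most like the members' mean profile. Marker genes other than these were named after their values were seen. Promoters came from RefSeq (GRCm38.p6) and gene positions from GENCODE vM21 and the file (GRCm38). No base of *Nfatc1* is reported here. The values of *Prrx1*, *Scx* and *Nfatc1* may hold reads of genes that overlap them.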

Additional observations from a re-analysis of the deposited data

How the results depend on the processing

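The call of *Nfatc1* adjusted for stage held its adjusted p under 0.05 in all 20 alternatives, with a log2 value of 0.51 to 0.70, and passed the fold limit in 16. The number of members called adjusted for stage was 1. It was 2 with DESeq2 (*Msx2* and *Nfatc1*, with 470 genes called in all against 391), 0 with limma on log2(RPKM + 0.5) (*Nfatc1* 0.56, adjusted p = 0.0132), 0 to 2 with each library left out, and 2 with the 9 libraries under 10 CPM of mesenchyme markers. The count of 2 with a library left out came without E12.5 mutant 3 (*Msx2* -1.24, adjusted p = 0.0138, and *Nfatc1*). At E11.5 DESeq2 called 2 members, *Msx2* and *Nfatc1* (adjusted p = 0.0421 and 0.00973), where edgeR called 0. Over all genes DESeq2 called 248 there and edgeR 14. At E12.5 the count of 0 became 0 to 1 with each library left out, and 1 with the libraries under 10 CPM of markers, each time *Nfatc1* without mutant 3 (0.67, adjusted p = 0.0243). Between control stages the count of 0 became 1 without the fold limit (*Sox9*) and 0 to 1 with each library left out. The cause was not tested.

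Differences near 0 changed sign. With each library left out, *Sox9* ranged from -0.34 to 0.15, *Twist1* from -0.36 to 0.14 and *Msx1* from -0.49 to 0.15 at E11.5, with positive values without mutant 2, and for *Twist1* and *Msx1* also without control 1 (0.087 and 0.086). *Msx1* was at 0.011 without control 2. At E12.5 *Sox9* ranged from -0.16 to 0.0024, *Twist1* from -0.089 to 0.054 and *Prrx1* from -0.43 to 0.24. Others kept their sign with each library left out, at E11.5 and E12.5 in turn: *Snai1* from -0.51 to -0.05 and -0.47 to -0.18, *Snai2* from -0.72 to -0.48 and -0.33 to -0.013, *Prrx2* from -0.44 to -0.10 and 0.0066 to 0.14, and *Scx* from -0.68 to -0.29 and 0.20 to 0.51. *Msx1* at E12.5 ranged from -0.50 to -0.26. With sex as a covariate *Sox9* was at 0.0026, *Twist1* at 0.23, *Msx1* at 0.17 and *Prrx2* at 0.067 at E11.5. At E12.5 *Prrx1* was at -0.032 with limma and -0.037 with the replicate block. The marker limit of 10 CPM gave 0.0024 for *Sox9* and -0.43 for *Prrx1* at E12.5, and turned the difference of the *Msx2* mutant effect between stages from 0.79 to -0.15. None of these values was called.

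Whether replicate numbers pair the samples cannot be settled with 3 libraries per group. Deviations of same-numbered libraries correlated at -0.028, 0.43 and 0.29 at E11.5 and at 0.023, 0.059 and 0.023 at E12.5. At both stages libraries 2 and 3 correlated best with their own number, and library 1 did not. With the replicate block 1 member was called adjusted for stage and 0 in each other comparison. Among all genes at E11.5, 96 were called with the block and 14 without it. The lowest counts in a library were 60 for *Msx1*, 32 for *Msx2* and 54 for *Scx*, which limits the precision of their values.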

Other observations

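These genes were chosen after their values were seen. Dlx5, a homeobox gene of branchial and skeletal mesenchyme, was low in every heart and rose at E12.5, with 2, 7 and 6 counts in the controls against 18, 16 and 22 in the mutants (log2 1.95, SE 0.46, edgeR adjusted p = 0.0356). All 3 mutants lay above the controls, and E12.5 mutant 3, the library with other mesenchyme markers, was the highest. Mean levels were 0.30 CPM in controls and 1.19 CPM in mutants, so the mutants gave most of the level that passed the filter. Of the 12 pharyngeal and body wall mesenchyme markers, Dlx5 was the only 1 tested at E12.5. The cause was not tested. At E11.5 Dlx5 had 17, 11 and 9 counts in the controls against 18, 6 and 7 in the mutants.

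Twist2, the relative of Twist1, had 93 counts in E11.5 control 1 against 40 and 26 in the other E11.5 controls, and 53 in E12.5 mutant 3 against 28 and 28 in the other E12.5 mutants, the order seen for Msx2 and Prrx1. Meox1, a homeobox gene of mesenchyme, had 377, 61 and 276 counts in the E11.5 mutants and 214 to 235 in the E11.5 controls. Its low library was E11.5 mutant 2, the one with the lowest level of 10 of 10 members in its group.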
